A study of Homo sapiens with 8 samples.

Results

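The 7 genes described here encode the coat of caveolae and the ion channel PIEZO1: the caveolins CAV1 and CAV2, the cavins PTRF (now named CAVIN1) and PRKCDBP (now named CAVIN3), the neck ATPase EHD2, the membrane-bending protein PACSIN2, and PIEZO1. They were chosen by symbol, for what their proteins do, out of 25369 genes in the count table. All 7 passed the filter on low counts, as did 14016 genes in all. The cells were MDA-MB-231, an established human triple-negative breast cancer line with a mesenchymal appearance, sequenced as total RNA from 10000000 cells per sample. The 4 groups held 2 libraries each: wild-type cells (WT), SUN2 knockout cells (SUN2KO), cells with a SUN2 truncated by residues 569 to 585 so that it does not bind Nesprin-2G (Kashlid), and cells with a SUN2 truncated by residues 1 to 139, its lamin-binding domain (LBD). SUN2 is an inner nuclear membrane protein that links the lamina to the cytoskeleton through nesprins. Which cells received the truncations, by what means, and how many clones a line holds is not given in the sources used here. Nothing in the labels says that the replicates were separate cultures, so p-values measure the spread between these libraries only, which may be technical.

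Caveolae are small flask-shaped pits of the plasma membrane. Caveolin oligomers sit in the inner leaflet of the membrane, cavins cover them as a coat, EHD2 forms a ring at the neck, and pacsins bend the membrane while a pit forms. When membrane tension rises, caveolae flatten and release membrane, which buffers the tension. PIEZO1 is a cation channel that opens under membrane tension and lets calcium into the cell. Both respond to force at the cell surface, whereas SUN2 transmits force at the nucleus.

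RefSeq promoter windows, 250 bases before to 50 bases after an annotated start on GRCh38.p14, were found for 5 of the 7 genes, in 13 windows. The first-listed window is shown for CAV1 and PIEZO1, which were lower in all 3 SUN2 lines, and for PACSIN2, which was not. Capitals mark the letters GGAATG, the core of sites bound by TEAD, a family of transcription factors that act in mechanical signalling.
CAV1 (chr7:116524759-116525058, plus strand): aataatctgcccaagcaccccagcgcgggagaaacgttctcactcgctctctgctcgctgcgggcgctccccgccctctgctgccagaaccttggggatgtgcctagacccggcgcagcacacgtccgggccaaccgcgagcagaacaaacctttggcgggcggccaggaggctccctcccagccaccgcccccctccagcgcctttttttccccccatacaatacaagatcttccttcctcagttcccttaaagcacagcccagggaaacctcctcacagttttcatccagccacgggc
PIEZO1 (chr16:88785171-88785470, minus strand): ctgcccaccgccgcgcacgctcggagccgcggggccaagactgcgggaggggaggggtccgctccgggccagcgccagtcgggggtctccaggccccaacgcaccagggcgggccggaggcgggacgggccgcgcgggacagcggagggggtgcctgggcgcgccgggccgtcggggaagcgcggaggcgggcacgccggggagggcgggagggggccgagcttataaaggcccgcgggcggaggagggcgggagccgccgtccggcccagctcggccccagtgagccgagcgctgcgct
PACSIN2 (chr22:42959850-42960149, minus strand): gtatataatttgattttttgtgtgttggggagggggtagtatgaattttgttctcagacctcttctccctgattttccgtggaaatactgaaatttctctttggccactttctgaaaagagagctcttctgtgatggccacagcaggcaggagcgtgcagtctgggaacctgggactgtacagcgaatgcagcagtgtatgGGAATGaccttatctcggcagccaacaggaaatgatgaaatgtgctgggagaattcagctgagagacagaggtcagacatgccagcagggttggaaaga
The PIEZO1 window was 81.0% G or C with 44 CG pairs, and the CAV1 window 62.3% with 19, against a median of 58.7% and 14 over 35116 windows of the same length. The PACSIN2 window shown was the poorest of these, at 47.0% and 4 pairs. Windows of the same gene differed, however: another PACSIN2 window had 68.7% and 27 pairs, and another CAV1 window 71% and 36. GGAATG, searched on both strands, was present in 4 of the 13 windows, all of them PACSIN2 windows (of 6), 3 of these 4 overlapping each other, and in 14.0% of all windows. The AP-1 motif TGANTCA, also searched on both strands, was in 0 of the 13 and in 7.71% of all windows. These are matches of letters, and binding was not measured.

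SUN2 itself was examined first. Its raw counts were 1408 and 1441 for WT, 474 and 564 for SUN2KO, 643 and 603 for Kashlid and 562 and 579 for LBD, so every SUN2 line lay below WT. These counts set WT apart from the rest. Among the SUN2 lines, Kashlid was higher than SUN2KO by 0.37 on the log2 scale (edgeR adjusted p = 0.00384). Without SUN2KO replicate 1 the difference was 0.26, so its size depended on a single library. LBD did not pass against SUN2KO in the main fit (edgeR adjusted p = 0.0501). In edgeR it passed with library size as the only scaling (adjusted p = 0.0356), median-ratio factors (0.0467) or a replicate block (0.0384). It also passed without the filter (0.0341) or with a stricter one (0.0474). In DESeq2 and in a fit of these groups alone it did not pass. LBD did not pass against Kashlid (0.555). SUN2 counts alone therefore do not check which SUN2 line is which. Depth was 16570099 to 18814795 counts per library.

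Of 5 genes fixed as high in MDA-MB-231 cells the summed level was 1309 to 1572 CPM (counts scaled to library size) in each library. VIM, the mesenchymal filament protein among them, stood at 400 and 408 CPM for WT and 281 to 341 CPM over the 6 libraries of the SUN2 lines. The 4 genes fixed as low or absent summed to 11.2 and 12.7 CPM for WT and 14.6 to 19.0 CPM in the SUN2 lines, most of it ERBB3. All 5 markers of HEK293T cells, also grown in the study, lay under 1 CPM, with a sum of 0.119 and 0.227 CPM for WT and 0.347 to 0.913 in the SUN2 lines, where LIN28B had 6 to 17 counts a library against 0 for both WT libraries. Of the markers of other cells rich in caveolae, the muscle, endothelial and adipocyte ones were low, whereas the fibroblast list held a high one. The muscle and endothelial markers differed in level between groups, as did DCN of the fibroblast list. The 3 muscle genes summed to 1.48 and 1.61 CPM for WT and 3.23 to 4.93 in the SUN2 lines, nearly all of it DES. The 3 endothelial genes summed to 7.68 to 8.71 CPM in SUN2KO, mostly CDH5, and to 2.25 to 4.40 in the other groups. The 3 adipocyte genes summed to at most 0.939 CPM and the leukocyte marker to 0.416. The 3 fibroblast genes summed to 112 to 139 CPM, most of it COL1A1, with PDGFRA at 0 in every library. The part of these marker levels in the results below was not tested.

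Against WT, CAV1, PTRF and PIEZO1 fell in each SUN2 line, and PACSIN2 passed in none. In SUN2KO, 3 of the 7 genes fell (CAV1, PTRF and PIEZO1) and 0 rose, where 36.7% of all tested genes changed, 17.5% rising and 19.1% falling. In Kashlid, 6 fell, all but PACSIN2, where 44.5% of genes changed, 21.7% rising and 22.7% falling. In LBD, 5 fell (CAV1, CAV2, PTRF, EHD2 and PIEZO1), where 40.0% changed, 19.0% rising and 21.0% falling. A change means an adjusted p under 0.05 in edgeR's quasi-likelihood test, with Benjamini-Hochberg adjustment over all genes. The median log2 fold change of the 7 genes was -0.17, -0.45 and -0.28 in SUN2KO, Kashlid and LBD, beside a median over all genes of 0.00, 0.01 and 0.00. The 3 comparisons use the same WT libraries, so they are not independent of each other. The LBD count was 3 without WT replicate 2 or without LBD replicate 2. In these bulk libraries, fewer cells with a transcript and less of it per cell cannot be told apart.

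**Figure D1:**
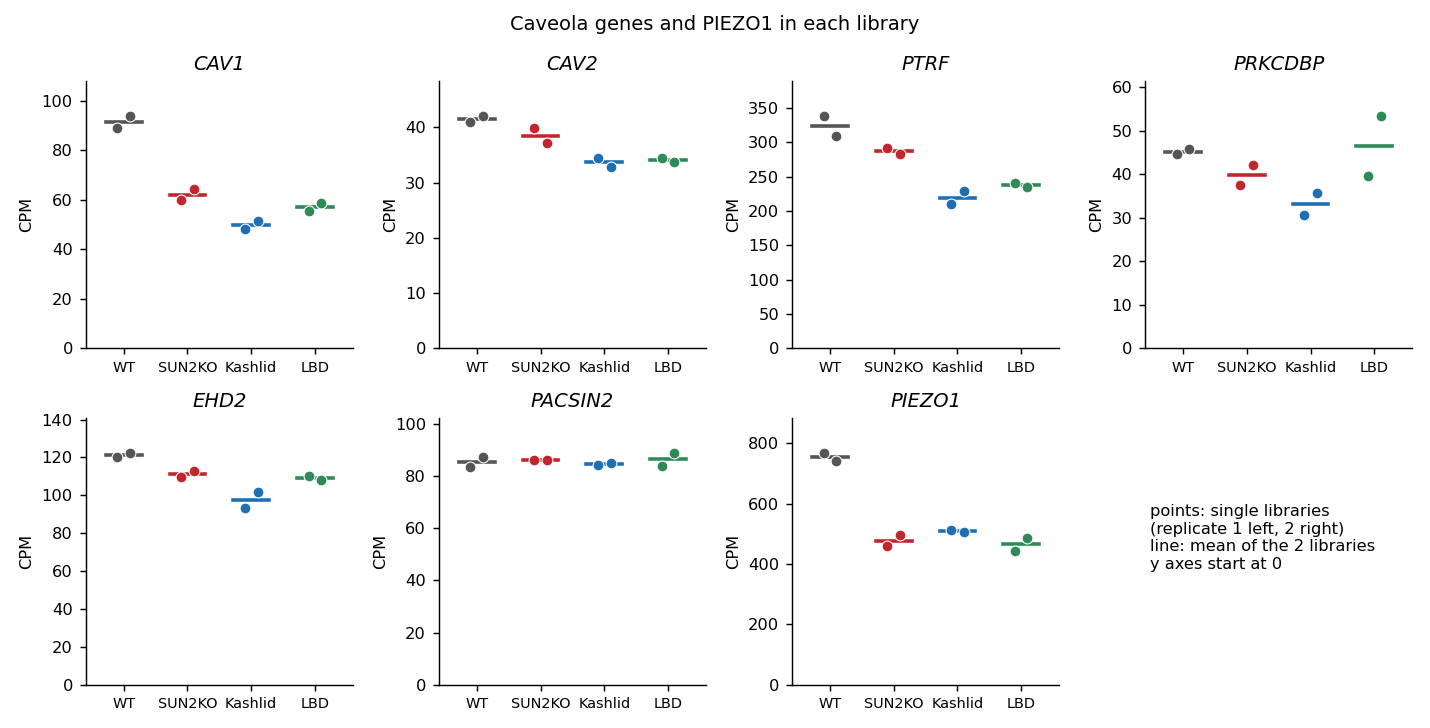
Level of each gene in CPM (vertical axes, from 0) in the 2 libraries of each group (points) with their mean (lines). CAV1, PTRF and PIEZO1 lie lower in all SUN2 libraries than in both WT libraries, and PACSIN2 lies between 83.5 and 88.9 CPM throughout.

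CAV1, the main structural protein of caveolae outside muscle (hg19 chromosome 7, 116164839 to 116201239), had the deepest fall of the caveola genes. It stood at 89.2 and 93.9 CPM for WT, 59.8 and 64.2 for SUN2KO, 48.0 and 51.3 for Kashlid and 55.3 and 58.7 for LBD. No library of a SUN2 line reached the lower WT library, and the Kashlid libraries lay below all others. The mean was 91.5 ± 3.35 CPM (SD, n = 2) in WT, and 67.7%, 54.2% and 62.3% of that in SUN2KO, Kashlid and LBD. The log2 fold change was -0.56 ± 0.07 (SE) for SUN2KO, -0.88 ± 0.07 for Kashlid and -0.68 ± 0.07 for LBD, with edgeR adjusted p = 1.34e-06, 2.1e-09 and 9.08e-08.

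CAV2, which needs CAV1 to leave the Golgi and joins it in the same oligomers, is encoded next to it (116139655 to 116148595, 16.2 kb before the CAV1 start) and had smaller log2 fold changes. It stood at 41.0 and 42.1 CPM for WT, 39.9 and 37.2 for SUN2KO, 34.5 and 32.9 for Kashlid and 34.4 and 33.8 for LBD. The SUN2KO libraries lay just under WT, and those of both truncations lay lower still without overlap. The log2 fold change was -0.30 ± 0.08 in Kashlid and -0.28 ± 0.08 in LBD (edgeR adjusted p = 0.00424 and 0.00726). In SUN2KO it was -0.11, with a 95% interval of -0.27 to 0.06 (edgeR adjusted p = 0.302). The LBD value did not pass without WT replicate 2 (adjusted p = 0.0583 in edgeR) or LBD replicate 2 (0.0506). In the authors' deposited tables CAV2 has an adjusted p of 0.0566 in Kashlid and 0.0613 in LBD.

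PTRF, the cavin without which no caveola forms (chromosome 17, 40554467 to 40575338), is the most abundant of the caveola transcripts per length. Its libraries stood at 339 and 310 CPM for WT, 292 and 283 for SUN2KO, 209 and 230 for Kashlid and 241 and 235 for LBD. The groups ran from WT through SUN2KO down to the truncations, and SUN2KO lay nearer to WT than to either truncation. The log2 fold change was -0.56 ± 0.05 (SE) in Kashlid and -0.45 ± 0.05 in LBD (edgeR adjusted p = 5.52e-08 and 1.58e-06). In SUN2KO it was -0.17 ± 0.05 (edgeR adjusted p = 0.0169), and that call ended without WT replicate 1 (0.263), SUN2KO replicate 1 (0.0592) or SUN2KO replicate 2 (0.139).

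PRKCDBP, a cavin that binds CAV1 and protein kinase C delta (chromosome 11, 6340176 to 6341740), differed between the truncations. It stood at 44.6 and 45.7 CPM for WT, 37.6 and 42.2 for SUN2KO, 30.6 and 35.7 for Kashlid and 39.7 and 53.4 for LBD. The LBD libraries lay on either side of both WT libraries, with the widest spread of the 7 genes for its mean, 46.5 ± 9.70 CPM. PRKCDBP fell in Kashlid, by 0.45 on the log2 scale (SE 0.11, edgeR adjusted p = 0.00241). Its log2 fold change was -0.18 in SUN2KO (95% interval -0.40 to 0.04) and 0.04 in LBD (-0.18 to 0.26), and neither passed.

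EHD2, the ATPase that holds caveolae at the surface (chromosome 19, 48216601 to 48246391), had smaller log2 fold changes than CAV1 in each line. It stood at 120 and 123 CPM for WT, 110 and 113 for SUN2KO, 93.3 and 102 for Kashlid and 110 and 108 for LBD. All SUN2 libraries lay below both WT libraries, and the Kashlid libraries were the lowest. The log2 fold change was -0.32 ± 0.06 in Kashlid (edgeR adjusted p = 0.000157), -0.15 ± 0.06 in LBD (0.0392) and -0.12 ± 0.06 in SUN2KO (0.0996). The LBD call ended in DESeq2 (adjusted p = 0.0879), with library size as the only scaling (0.0987), and without any single library of the comparison (0.0984 to 0.183 in edgeR). In the authors' deposited table EHD2 has an adjusted p of 0.112 in LBD.

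PACSIN2, the F-BAR protein that curves the membrane of a forming caveola (chromosome 22, 43265772 to 43343047, 4.14 Mb from SUN2), did not pass in any comparison. It stood at 83.5 and 87.1 CPM for WT, 86.1 and 86.2 for SUN2KO, 84.0 and 85.1 for Kashlid and 83.9 and 88.9 for LBD. Each SUN2 line overlapped WT, although both Kashlid libraries lay below both SUN2KO libraries. The 95% interval of its log2 fold change was -0.11 to 0.14 in SUN2KO, -0.14 to 0.11 in Kashlid and -0.11 to 0.14 in LBD.

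**Figure D2:**
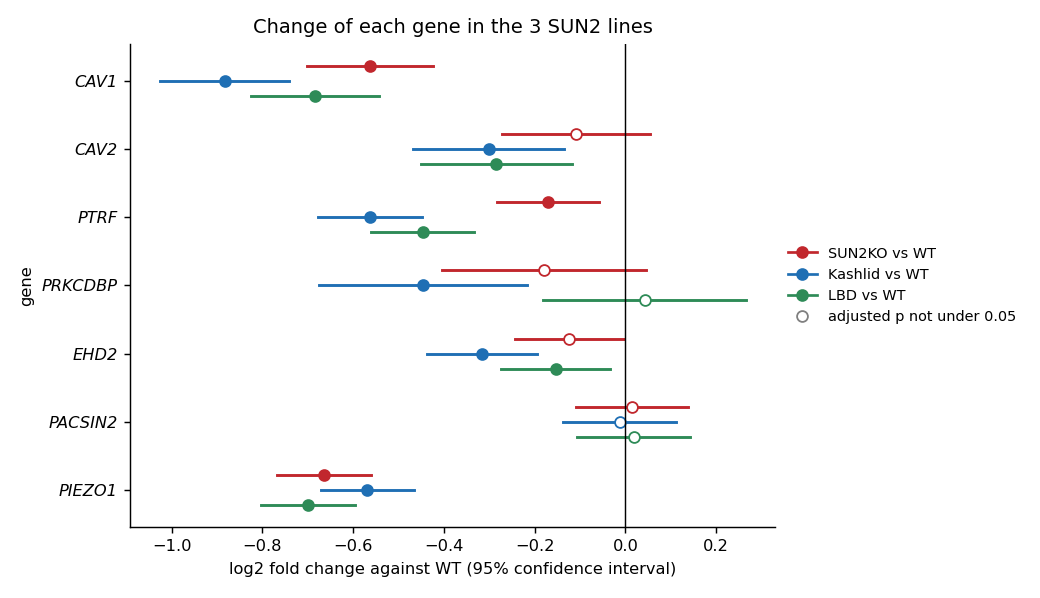
Log2 fold change of each gene against WT (horizontal axis) with its 95% confidence interval in SUN2KO, Kashlid and LBD; filled points passed the test. Kashlid has the lowest value for each caveola gene, from -0.88 for CAV1 to -0.01 for PACSIN2, while for PIEZO1 the lowest is LBD at -0.70.

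PIEZO1 (chromosome 16, 88781746 to 88851372) fell in all 3 SUN2 lines. Its libraries stood at 769 and 742 CPM for WT, 459 and 494 for SUN2KO, 514 and 504 for Kashlid and 443 and 487 for LBD. SUN2KO and LBD overlapped, Kashlid lay just above them, and all lay far below WT. The WT mean was 755 ± 19.1 CPM, and the lines held 63.1%, 67.4% and 61.5% of it. The log2 fold change was -0.66 ± 0.05 (SE) for SUN2KO, -0.57 ± 0.05 for Kashlid and -0.70 ± 0.05 for LBD, with edgeR adjusted p = 2.15e-09, 1.11e-08 and 7.24e-10. PIEZO1 overlaps CTU2 by 41 bases, and whether counting used the strand is not given in the sources used here. CTU2 had 2728 counts over the 8 libraries and PIEZO1 76941. PIEZO1 also overlaps LOC100289580 by 10246 bases and LOC339059 by 2982, which had 144 and 39 counts, and MIR4722, which had 0.

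Per length, the order of the 7 levels also changed. In CPM per kb of exon (lengths from GENCODE v29, another annotation than the files'), WT ran from PIEZO1 at 92.5 ± 2.34 (SD, n = 2) and PTRF at 84.7 ± 5.38 through PRKCDBP at 35.6, EHD2 at 33.9, CAV1 at 24.9 and PACSIN2 at 24.3 to CAV2 at 10.0. CAV1 and PACSIN2 differed there by less than the SD of either, 0.912 and 0.729. PTRF stood above PIEZO1 in SUN2KO, at 75.2 ± 1.63 against 58.4 ± 3.09, and in LBD, at 62.1 ± 1.13 against 56.9 ± 3.81, but not in Kashlid, at 57.3 ± 3.70 against 62.4 ± 0.842. CAV1 had dropped to 16.9, 13.5 and 15.5 in SUN2KO, Kashlid and LBD, below PACSIN2 at 24.5, 24.0 and 24.6.

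The make-up of the caveola transcripts relative to CAV1 shifted with it. Within a library, the ratio of CAV2 to CAV1 counts was 0.459 and 0.448 for WT, 0.667 and 0.580 for SUN2KO, 0.719 and 0.642 for Kashlid and 0.622 and 0.575 for LBD. Every SUN2 library lay above both WT libraries. EHD2 to CAV1 was 1.35 and 1.31 in WT and 1.76 to 1.99 in the 6 libraries of the SUN2 lines. The mean ratio of PTRF to CAV1 was 3.55 for WT, 4.65 for SUN2KO, 4.42 for Kashlid and 4.18 for LBD, and here too the libraries of WT and of the SUN2 lines did not overlap. PRKCDBP to PTRF, the ratio of the cavins, was 0.132 and 0.148 in WT, and its highest value, 0.227, was in LBD replicate 2. These ratios need no scaling between libraries, and a shift in them shows unequal change, not which gene moved.

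**Figure D3:**
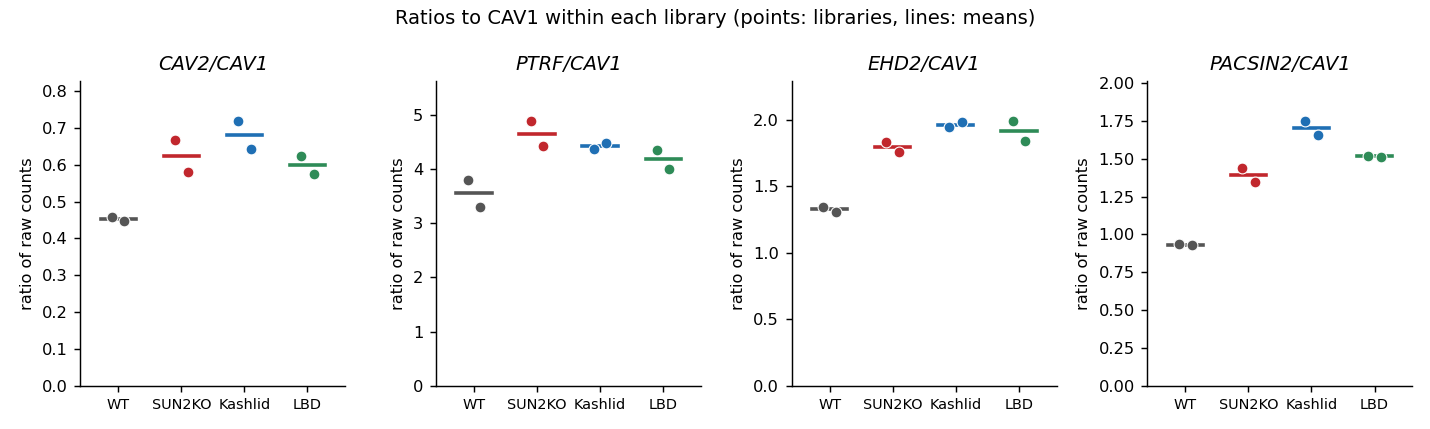
Ratio of raw counts to CAV1 within each library for CAV2, PTRF, EHD2 and PACSIN2 (vertical axes, from 0); points are libraries and lines means. All 6 libraries of the SUN2 lines lie above both WT libraries in each panel, with PACSIN2 to CAV1 at 0.936 and 0.927 in WT and 1.34 to 1.75 in the others.

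The SUN2 lines were then compared with each other. Against SUN2KO, 3 of the 7 genes fell in Kashlid, where 18.0% of genes changed, 8.92% rising and 9.13% falling. They were PTRF by 0.39 (SE 0.05), CAV1 by 0.32 (SE 0.07) and EHD2 by 0.19 (SE 0.06) on the log2 scale, with edgeR adjusted p = 2.8e-05, 0.00254 and 0.0245. Kashlid thus had less RNA of these caveola genes than the knockout. CAV1 did not pass without SUN2KO replicate 2 (adjusted p = 0.0543 in edgeR), and EHD2 did not pass in 6 of 11 alternatives, where its adjusted p was up to 0.191. The count was 1, PTRF, without SUN2KO replicate 2. PIEZO1 differed by 0.10, with a 95% interval of -0.01 to 0.20. PRKCDBP, at -0.27 (edgeR adjusted p = 0.104), passed without the filter (0.0207), with the replicate block (0.0316) and without Kashlid replicate 2 (0.0357).

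LBD and SUN2KO were closer. Only PTRF of the 7 fell in LBD, where 13.5% of genes changed (6.69% rising, 6.79% falling), by 0.28 on the log2 scale (SE 0.05, edgeR adjusted p = 0.00138). CAV1 differed by -0.12 (95% interval -0.27 to 0.02) and PIEZO1 by -0.04 (-0.14 to 0.07). PRKCDBP, at 0.22 (edgeR adjusted p = 0.199), passed without LBD replicate 1 (0.42, adjusted p = 0.0118 in edgeR) and was -0.01 without LBD replicate 2 (0.990).

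Between the truncations, PRKCDBP was the only one of the 7 to pass, where 2.91% of genes changed, 1.63% rising and 1.28% falling. It was higher in LBD than in Kashlid by 0.49 ± 0.11 (SE, edgeR adjusted p = 0.0179). This rested on single libraries: the adjusted p was 0.303 without LBD replicate 2, 0.107 without Kashlid replicate 1, and 0.0855 in a fit of these groups alone. CAV1 was higher in LBD by 0.20 (95% interval 0.05 to 0.35) and PIEZO1 lower by 0.13 (interval -0.24 to -0.03 for the log2 fold change), but neither passed after adjustment over all genes (edgeR adjusted p = 0.143 and 0.170).

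PIEZO2, the other PIEZO channel and known for touch sensing, had another order of levels. It stood at 58.7 and 57.7 CPM for WT, 63.7 and 62.8 for SUN2KO, 30.4 and 28.2 for Kashlid and 31.1 and 29.1 for LBD. The knockout libraries lay above WT and those of both truncations far below. Its log2 fold change was -0.99 ± 0.08 in Kashlid and -0.95 ± 0.08 in LBD (edgeR adjusted p = 1.79e-09 and 3.62e-09), and 0.12 in SUN2KO (95% interval -0.03 to 0.27, adjusted p = 0.197). Against SUN2KO it fell by 1.11 in Kashlid and 1.07 in LBD (edgeR adjusted p = 1.1e-09 and 1.68e-09). PIEZO1 passed against WT in each line and in neither truncation against SUN2KO. Whether the 2 channels differ in response was not tested.

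Of 24 other genes of stretch-linked or swelling-activated channels and PIEZO1 partners, 16 could be tested. In SUN2KO 2 rose and 1 fell, in Kashlid 4 rose and 2 fell, and in LBD 6 rose and 2 fell, with medians of 0.07, 0.11 and 0.12 on the log2 scale, beside 36.7%, 44.5% and 40.0% of all genes changed. PKD2, a cation channel of the polycystin complex, rose by 0.60, 0.29 and 0.43 in SUN2KO, Kashlid and LBD, and the Kashlid call ended without WT replicate 2 (adjusted p = 0.156 in edgeR). Its partner PKD1 rose in Kashlid by 0.53 and in LBD by 0.33. PANX1, a large-pore channel that releases ATP, rose in LBD by 0.29, a call that ended without LBD replicate 2 (0.0754). TRPV2, chosen after its values were seen, had 2 and 4 counts for WT, 13 and 14 for SUN2KO, 29 and 34 for Kashlid and 29 and 32 for LBD. It is 1 of the 2 channel genes that rose in SUN2KO, a call that ended without WT replicate 1 (adjusted p = 0.110 in edgeR) or SUN2KO replicate 2 (0.0571). TRPV4, another channel linked to stretch, had 2 counts in all 8 libraries and could not be tested.

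**Figure D4:**
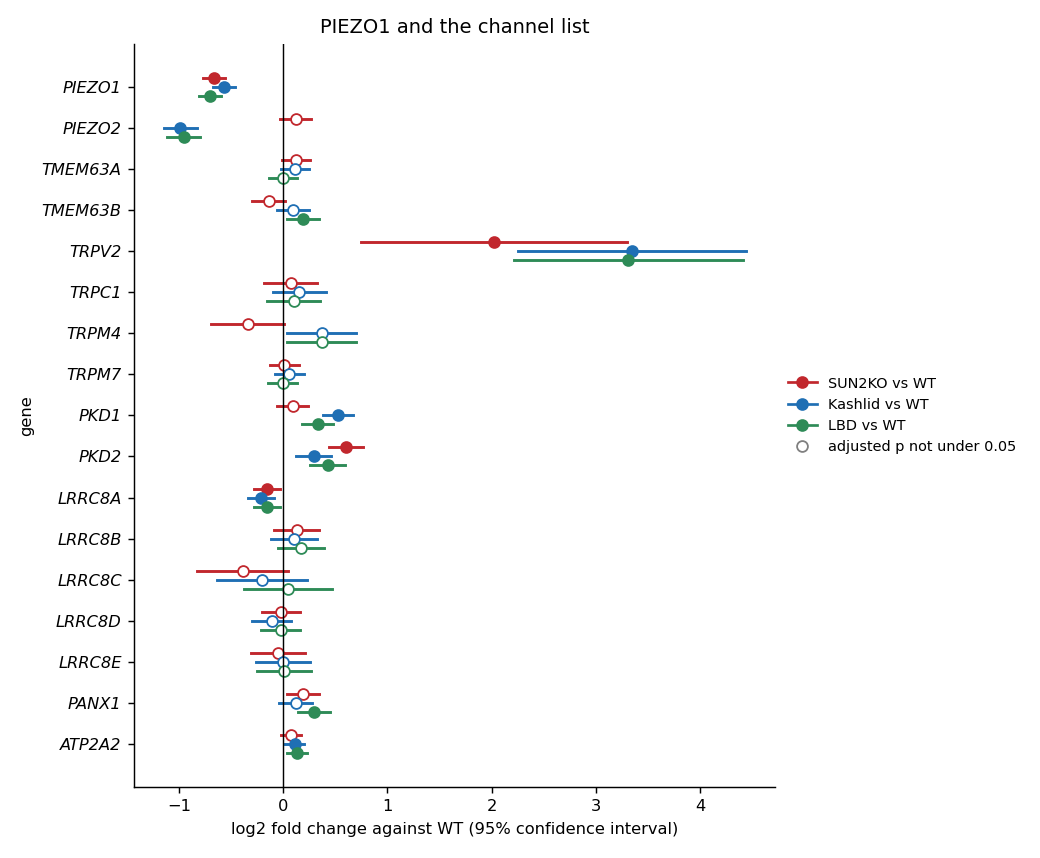
Log2 fold change against WT (horizontal axis) with its 95% confidence interval for PIEZO1 and the tested channel and partner genes in the 3 SUN2 lines; filled points passed the test. PIEZO1 lies near -0.66, -0.57 and -0.70, PIEZO2 near -0.99 and -0.95 in the truncations, and TRPV2, at few counts, far to the right.

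Relatives of the caveola genes were read next. Of the 5 tested relatives out of 8 other caveolin, cavin, EHD and pacsin genes, 1 rose in SUN2KO, and 2 rose and 1 fell in each truncation. Their medians were 0.24, -0.08 and 0.25, and 36.7%, 44.5% and 40.0% of all genes changed. EHD4, an EHD ATPase of endosomes, rose by 0.51, 0.60 and 0.60 in SUN2KO, Kashlid and LBD, opposite to EHD2. EHD1, which acts in recycling from endosomes, fell in Kashlid by 0.54 and in LBD by 0.30, the latter not without WT replicate 1 (adjusted p = 0.0771 in edgeR). PACSIN3 rose by 0.27 and 0.25 in the same lines. The muscle caveolin CAV3 had 5 counts in all libraries.

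Of 9 tested genes out of 10 for proteins known to act at caveolae, 1 rose and 3 fell in SUN2KO, 2 rose and 4 fell in Kashlid, and 2 rose and 5 fell in LBD, with medians of -0.04, -0.10 and -0.16, beside 36.7%, 44.5% and 40.0% of all genes changed. MYOF, a ferlin of membrane repair, fell by 0.52 in Kashlid and 0.37 in LBD. FNBP1L, an F-BAR protein, fell by 0.27, 0.23 and 0.35 in SUN2KO, Kashlid and LBD, and ABL1, a kinase of the actin skeleton, fell by 0.35 in SUN2KO and 0.16 in LBD. STX6, a Golgi SNARE, rose by 0.27, 0.38 and 0.24. Several of these smaller calls rested on single libraries: adjusted p in edgeR was 0.0557 without WT replicate 2 for FNBP1L in Kashlid, and 0.165 and 0.0619 without the same library for ABL1 and STX6 in LBD. It was 0.0635 for FNBP1L without Kashlid replicate 2 and 0.140 for ABL1 without LBD replicate 2.

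Flotillins and stomatins form other membrane domains. Of 5 such genes, 3 fell and 0 rose in each SUN2 line, with medians of -0.23, -0.22 and -0.30. Over all genes 19.1%, 22.7% and 21.0% fell, with medians of 0.00, 0.01 and 0.00. STOM, known to bind and tune ion channels, fell by 0.23, 0.38 and 0.47 in SUN2KO, Kashlid and LBD, and FLOT1 by 0.32, 0.16 and 0.30. The Kashlid call of FLOT1 ended without WT replicate 2 (adjusted p = 0.217 in edgeR) or Kashlid replicate 2 (0.0706), and with library size as the only scaling (0.0674). STOML2, a mitochondrial member, fell by 0.18 in SUN2KO and 0.22 in LBD, and FLOT2 by 0.22 in Kashlid. The SUN2KO call of STOML2 ended without any single library of the comparison (edgeR adjusted p 0.0736 to 0.114), and the Kashlid call of FLOT2 ended without WT replicate 1 (0.0631).

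Clathrin-coated pits are the other main route of uptake at the surface. Of 15 clathrin coat and adaptor genes, 1 rose and 3 fell in SUN2KO, 3 rose and 8 fell in Kashlid, and 3 rose and 6 fell in LBD. The medians were 0.01, -0.22 and -0.02, and 36.7%, 44.5% and 40.0% of all genes changed. CLTA, a clathrin light chain, fell by 0.21, 0.40 and 0.31, and PICALM, a clathrin assembly protein, by 0.32, 0.29 and 0.27. The scaffold ITSN1 fell by 0.29, 0.63 and 0.40, and the adaptor DAB2 by 0.30 in Kashlid and 0.66 in LBD, the former not without WT replicate 2 (adjusted p = 0.0627 in edgeR).

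A further 11 genes of calcium handling were counted. They cover calcium stores, the calcium-dependent calpain proteases with their inhibitor, and the plasma membrane genes ORAI1, ATP2B1 and ATP2B4. In SUN2KO 3 rose and 2 fell, in Kashlid 4 rose and 4 fell, and in LBD 4 rose and 1 fell, with medians of 0.05, -0.02 and 0.07, beside 36.7%, 44.5% and 40.0% of all genes changed. CAST, the inhibitor of the calpain proteases, rose by 0.41, 0.49 and 0.53. The inositol trisphosphate receptors, which release calcium from the endoplasmic reticulum, included changes of both signs: ITPR1 fell by 0.22, 0.51 and 0.49, ITPR2 rose by 0.52, 0.38 and 0.31, and ITPR3 rose in Kashlid by 0.39 and in LBD by 0.37.

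Each gene was also set beside the tested genes within 2.5 Mb. The 9 genes around CAV1, CAV2 among them, had median log2 fold changes of -0.45, -0.55 and -0.51 in SUN2KO, Kashlid and LBD. In SUN2KO, Kashlid and LBD 5, 6 and 5 of them fell and 1 rose in each. Over all genes 19.1%, 22.7% and 21.0% fell and 17.5%, 21.7% and 19.0% rose. The next genes on either side of the caveolins fell too: MET, the hepatocyte growth factor receptor, by 0.72, 0.86 and 0.69, and TES, a focal adhesion protein, by 0.45, 0.38 and 0.38. CAV1 was lower than the median of its neighbours by 0.11, 0.33 and 0.17, and CAV2 higher than that of its own by 0.45, 0.36 and 0.40.

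Around PIEZO1, 22, 24 and 25 of 56 genes fell in SUN2KO, Kashlid and LBD, and 2, 4 and 2 rose. Over all genes 19.1%, 22.7% and 21.0% fell. The medians around PIEZO1 were -0.21, -0.19 and -0.24. PIEZO1 was lower than these by 0.45, 0.38 and 0.46. Of the nearest tested genes that do not overlap PIEZO1 neither fell, with RNF166 at 0.02, 0.12 and 0.21 and CDT1 at 0.03, 0.21 and 0.11. CDT1 rose in Kashlid (edgeR adjusted p = 0.0115), with a log2 fold change of 0.17 without Kashlid replicate 2. CTU2, which overlaps PIEZO1 and lies between it and RNF166, was not read as a nearest gene because of that overlap. Overlap did not exclude a gene from those within 2.5 Mb.

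Around PTRF (112 genes) the medians were within 0.01 of 0. Its direct neighbour STAT3, a transcription factor of cytokine signalling, had log2 fold changes of -0.02, -0.24 and -0.23 in SUN2KO, Kashlid and LBD, and fell in both truncations (edgeR adjusted p = 0.000729 and 0.00154). STAT3 also fell against SUN2KO, by 0.22 in Kashlid and 0.21 in LBD (edgeR adjusted p = 0.00425 and 0.00952), calls that ended without SUN2KO replicate 1 (0.0608 and 0.103) and, for LBD, without LBD replicate 2 (0.167). ATP6V0A1, on the other side of PTRF, stood at 0.14, 0.24 and 0.16. Around PRKCDBP (34 genes) the medians were 0.09, 0.08 and 0.04. Its neighbour SMPD1, the acid sphingomyelinase, fell by 0.83, 1.29 and 0.71, and FAM160A2 stood at -0.02, 0.13 and 0.08. SMPD1 was also higher in LBD than in Kashlid, by 0.57 (edgeR adjusted p = 0.00568, and 0.114 without LBD replicate 1), the contrast in which PRKCDBP passed. Around EHD2 (124 genes) the medians were 0.11, 0.21 and 0.13, opposite in sign to EHD2, with GLTSCR1 at 0.46, 0.33 and 0.26 and GLTSCR2 at 0.25, 0.41 and 0.29. Around PACSIN2 (60 genes) they were 0.01, 0.00 and -0.01, with ARFGAP3 at 0.01, 0.12 and 0.19 and TTLL1 at 0.00, 0.31 and -0.14. Changes in gene copy number between the lines were not measured here, and their part in these values was not tested.

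**Figure D5:**
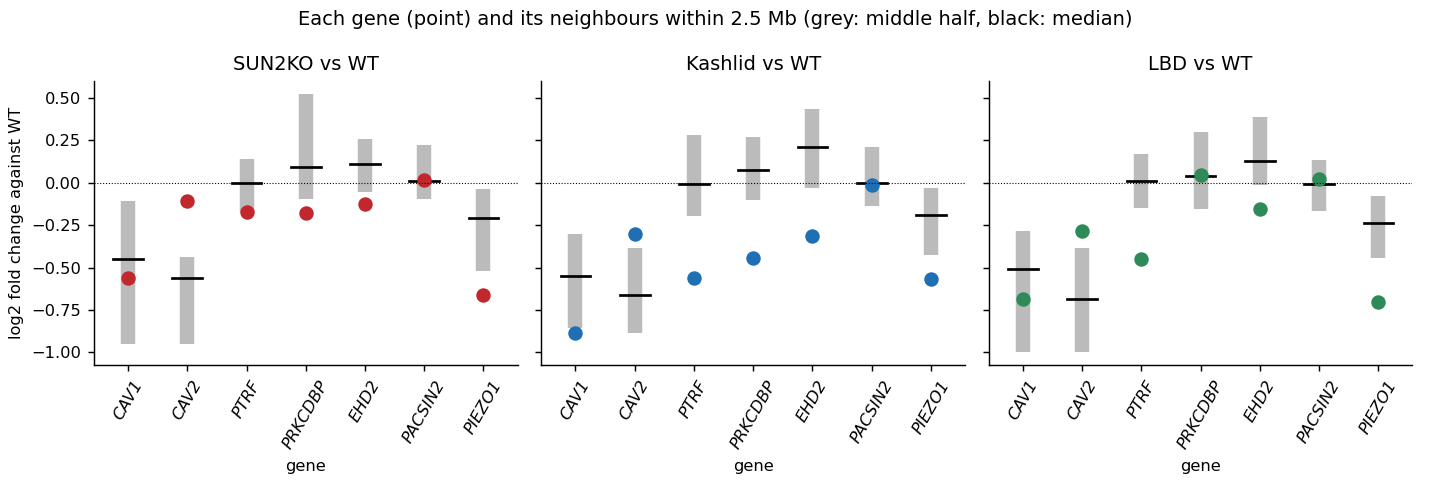
Log2 fold change against WT (vertical axis) of each gene (coloured point) beside its tested neighbours within 2.5 Mb (black line, median; grey bar, from the first to the third quartile) in SUN2KO, Kashlid and LBD. CAV1 and PIEZO1 lie in low surroundings, with medians of -0.45 and -0.21 in SUN2KO, and PTRF lies below neighbours whose median is near 0.

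Over the 8 libraries, log2 CPM of CAV1 went with that of EHD2 (Pearson r = 0.908), PTRF (0.893), PIEZO1 (0.867) and CAV2 (0.862). Its r was 0.588 with PRKCDBP and 0.117 with PACSIN2. These are descriptions over 4 groups of libraries, which share the difference between WT and the rest. Of 10859 genes averaging 5 CPM or more, the levels most like CAV1 were those of ATP1B1 (r = 0.990), WFS1 (0.989) and CNOT7 (0.989). PTRF was most like DYNLL1 (0.991), KIFC1 (0.988) and CCT5 (0.986). PIEZO1 was most like LSM4 (0.993), KCTD9 (0.993) and CEMIP (0.990).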

How the data were processed

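RNA was sequenced as paired-end reads from 8 libraries of MDA-MB-231 cells, 2 per group, made with the NEBNext Ultra kit, per the labels' protocols. The submitters' processing notes name Trim Galore, STAR 2.7.1a, bedtools 2.24.0, HTSeq and DESeq2, and hg19 as the genome build. The deposited counts are whole reads per gene, 25369 genes with 0 entries naming no gene. Neither the annotation nor the use of strand is given in the sources used here. In 3 further tables the authors deposited log2 fold changes of each line against WT (the submitters' processing notes name DESeq2, without its role). The p-values and adjusted p-values the authors deposited there carry no column names either. These columns were identified from their values (log2 correlation of 0.999 with those computed here). A further 12 unnamed columns, holding values per library, were not used.

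The analysis ran edgeR 4.0.16 under R 4.3.3 with TMM scaling, filterByExpr (minimum count 10, 14016 genes), and a two-sided quasi-likelihood test that fitted all 8 libraries with a mean for each group (4 residual degrees of freedom). Benjamini-Hochberg adjustment ran over all genes of each of the 6 comparisons, with a threshold of 0.05. CPM are given as mean ± SD, and intervals are 95%. Alternatives were DESeq2 1.42.0, scaling by median-ratio factors or by library size only, testing without a filter or with one of 5 CPM in 2 libraries, a fit of the groups compared alone, a replicate block, and leaving out each library. The steps were tested on simulated data. Gene positions are those of the files. Promoter windows are RefSeq's.

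The 7 genes, the 6 gene lists and the marker lists were chosen with earlier results of these data known. From each list up to 4 genes were named, those with the largest change against WT among genes past the threshold at a mean of at least 5 CPM, with the 3 genes most like CAV1, PTRF and PIEZO1 and the direct neighbours of members.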

Additional observations from a re-analysis of the deposited data

How the results depend on the processing

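Of 462 values of the 7 genes under the alternatives, 435 kept their side of the threshold, 21 lost a call, 6 gained one and 0 changed sign as a call. Of the 435, 14 changed sign without being called, such as PRKCDBP in LBD against WT, which ran from -0.18 to 0.25. The CAV1 and PIEZO1 calls against WT, and the 6 calls in Kashlid against WT, held in all 11 alternatives. Leaving out 1 library at a time gave 2 to 3 calls among the 7 in SUN2KO against WT, 6 in Kashlid, 3 to 4 in LBD, 1 to 4 in Kashlid against SUN2KO, 1 to 2 in LBD against SUN2KO and 0 to 2 in LBD against Kashlid. In LBD against Kashlid the count was also 0 in the edgeR fit of these groups alone, with 4 at an unadjusted p under 0.05. DESeq2, fitted to all 8 libraries, made 1 call in that comparison. The cause was not tested. With a replicate block the counts were 3, 6, 5, 4, 1 and 1. Same-numbered libraries did not deviate together strongly (correlations -0.01 to 0.08). Such correlations cannot show whether same-numbered libraries were prepared together, since spread between single libraries could hide a modest shared effect.

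The share of all genes called moved by over 1.5 times only between the SUN2 lines: to 8.25% and 11.3% for Kashlid against SUN2KO without SUN2KO replicate 1 and 2, to 6.16%, 7.63% and 6.15% for LBD against SUN2KO without SUN2KO replicate 1, 2 and LBD replicate 2, and for LBD against Kashlid to 0.949% with these groups alone, 5.84% without Kashlid replicate 2, 0.897% without LBD replicate 1 and 0.960% without LBD replicate 2. With 2 libraries a group, the intervals set what could be seen: for PACSIN2 against WT they reach 0.14 on the log2 scale.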
